A study of Canis lupus familiaris with 60 samples.

Results

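PPARA and ALOXE3 were followed through an allergen patch test on dog skin. PPARA encodes peroxisome proliferator-activated receptor alpha, a nuclear receptor that fatty acids and their oxidized derivatives activate. It binds DNA as a partner of the retinoid X receptors and switches on genes of fatty acid oxidation, and in skin it is known for a role in keratinocyte differentiation. ALOXE3 encodes epidermal lipoxygenase 3, which acts after ALOX12B, the gene next to it in the RefSeq annotation of the UU_Cfam_GSD_1.0 assembly, on the linoleate carried by acylceramides. That step lets ceramides be attached to the cornified envelope, and oxidized lipids made by ALOXE3 have been reported to activate PPARA.

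The array held 1 probe for each gene under the identifiers by which they were chosen, 2 probes of 60068 in all and 2 of 54633 gene or transcript identifiers. The PPARA probe carries the expressed sequence tag (EST) DN748840, which the study tied to PPARA by sequence similarity to the human gene, and the ALOXE3 probe carries the predicted transcript ENSCAFT00000026841. A further 2 probes, A_11_P050901 and A_11_P0000019816, carry NM_001003093, the PPARA transcript of RefSeq, and gave separate readouts of the same gene. No spot of the 4 probes was flagged as an outlier, and each was well above background on all 59 arrays used. The study listed both genes for their difference between sensitized and nonsensitized dogs at 24 hr on these same arrays, so their values in that comparison describe them and are not independent evidence. It also measured both by quantitative PCR on the same RNA samples, with PPARA primers on NM_001003093. That assay gave lower values for both in the same comparison, significant for PPARA and not for ALOXE3.

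The skin came from 12 Beagle dogs aged 2 to 3 years, 6 of them sensitized, with a positive intradermal test and raised serum IgE to Dermatophagoides farinae, a house dust mite, and 6 nonsensitized. Each dog gave 5 punch biopsies of the shaved chest wall. One was untreated skin at 0 hr, and the others came at 6 hr and 24 hr from sites under a patch with 75 mg of mite paste (allergen) or 50 µl of saline. The sexes were not equally split between the groups of dogs. Each biopsy was hybridized to one array, which gave 10 groups of 6 arrays. The array of dog 2839 from the 24 hr allergen site was left out for degraded RNA, so that group had 5. Values are normalized log2 intensities, and a difference of 1 on that scale is a doubling of intensity. A difference was called when the limma adjusted p was below 0.05 and the change was at least 1.5-fold. The 24 hr interaction, which is the allergen minus saline difference in sensitized dogs minus that in nonsensitized dogs, called 432 of 45972 probes or 0.94%, of which 156 or 0.339% were lower. The biopsies hold epidermis, dermis and infiltrating cells together, so a lower signal can be fewer cells that express a gene or less RNA in each, and these cannot be told apart.

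In untreated skin the groups of dogs had similar levels of both genes. PPARA (DN748840) ranged from 9.30 to 9.91 in the sensitized dogs, with a median of 9.79, and from 9.51 to 9.87 in the nonsensitized dogs, with a median of 9.74. The difference between the means was 0.0055 on the log2 scale (SE 0.16, limma adjusted p = 0.9999), with a 95% interval from -0.31 to 0.32. ALOXE3 ranged from 8.02 to 8.62 in the sensitized dogs and from 8.27 to 8.54 in the nonsensitized dogs, a difference of -0.14 (SE 0.13, limma adjusted p = 0.9999; 95% interval from -0.41 to 0.13). These intervals span changes of less than 1.5-fold in either direction. Over all probes, 1 of 45972 was called in untreated skin, or 0.00218%.

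**Figure D1:**
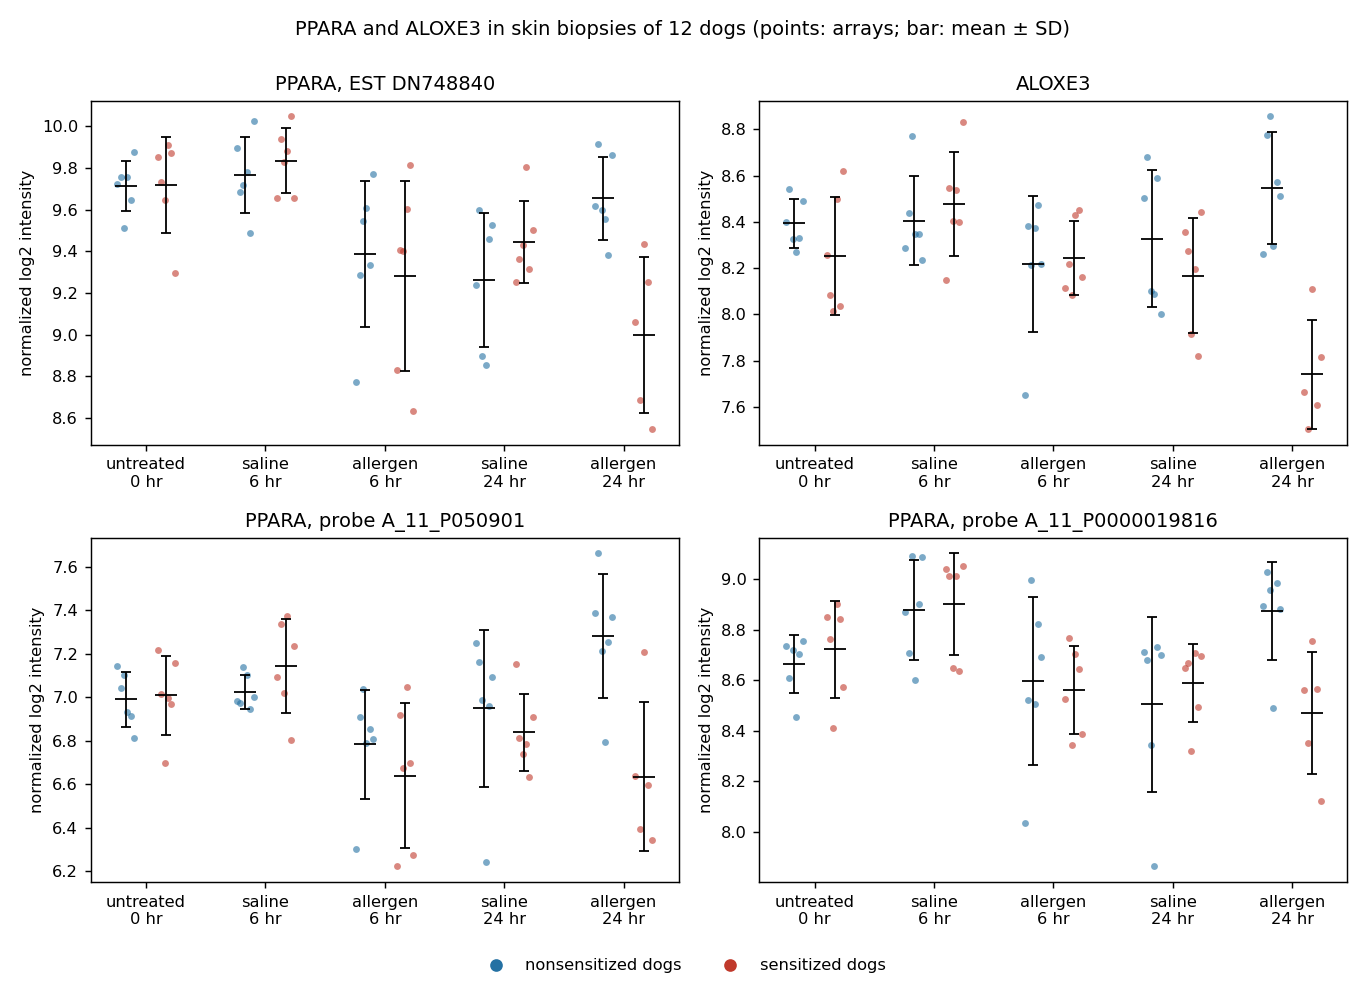
Normalized log2 intensity (y axis) of the PPARA EST probe, the ALOXE3 probe and both RefSeq PPARA probes in the 5 kinds of biopsy (x axis), for nonsensitized dogs in blue and sensitized dogs in red. Points are arrays, and black bars are the mean and SD. At the 24 hr allergen site the sensitized dogs have the lowest mean of the 10 groups for each of the 4 probes.

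At 24 hr the sensitized and nonsensitized dogs moved apart at the allergen site. In the sensitized dogs PPARA (DN748840) measured 8.55, 8.69, 9.06, 9.25 and 9.44 there, against a range from 9.25 to 9.81 (median 9.39) at their saline sites. In the nonsensitized dogs it ranged from 9.38 to 9.91 (median 9.61) at the allergen site and from 8.85 to 9.60 (median 9.35) at the saline site. Allergen thus lay below saline in the sensitized dogs and above it in the nonsensitized dogs, with overlap between sites in both.

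The within-dog differences carried opposite signs. With its EST probe DN748840, PPARA was lower under allergen than under saline in 5 of 5 sensitized dogs (mean -0.46 ± 0.38, SD), as were 4.84% of all probes. It was higher in 5 of 6 nonsensitized dogs (mean 0.39 ± 0.29, SD). The exact two-sided sign-flip test over dogs gave p = 0.0625 in each group, which for 5 dogs is the smallest p it allows. The interaction was -0.84 (SE 0.23, limma adjusted p = 0.0472), a 1.79-fold lower ratio in the sensitized dogs. Neither part of it passed the test alone, with -0.45 (SE 0.17, limma adjusted p = 0.249) in the sensitized and 0.39 (SE 0.16, limma adjusted p = 0.252) in the nonsensitized dogs, where these comparisons called 0.274% and 0.766% of all probes.

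The interaction of the PPARA EST probe lay close to the threshold. Leaving out each dog in turn ended the call for 9 of 12 dogs, and the adjusted p ran from 0.0355 without dog 2853 to 0.176 without dog 2855. Its size ran from -0.93 to -0.72 over these fits. With dog as a block, which uses the pairing of sites within each animal, it was -0.83 (limma adjusted p = 0.0058). With the slide as a block it was -0.69 (limma adjusted p = 0.0625), and on the slides that held all the 24 hr groups it was -0.51 (slide 2, 6 arrays) and -1.29 (slide 3, 8 arrays).

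ALOXE3 too had its lowest mean of the 24 hr sites under allergen in sensitized dogs and its highest under allergen in nonsensitized dogs. In the sensitized dogs it measured 7.50, 7.61, 7.66, 7.82 and 8.11 at the 24 hr allergen site and ranged from 7.82 to 8.44 (median 8.23) at the saline site. In the nonsensitized dogs it ranged from 8.26 to 8.86 (median 8.54) at the allergen site and from 8.00 to 8.68 (median 8.30) at the saline site. Every sensitized value at the allergen site therefore lay below every nonsensitized value there, a separation that 4.12% of all probes shared.

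ALOXE3 was lower under allergen in 5 of 5 sensitized dogs (mean -0.40 ± 0.26, SD; exact sign-flip p = 0.0625) and higher in 4 of 6 nonsensitized dogs (mean 0.22 ± 0.36, SD; exact sign-flip p = 0.25). The interaction of -0.64 (SE 0.19, limma adjusted p = 0.0776) missed the threshold. With dog as a block, which compares sites within the same animal, it was -0.64 (limma adjusted p = 0.014) and was called. The slide block moved it to -0.48 (limma adjusted p = 0.147), and within slides it was 0.059 (slide 2) and -0.66 (slide 3). In the 25 alternative fits the interaction was negative for both genes, and the call came and went.

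**Figure D2:**
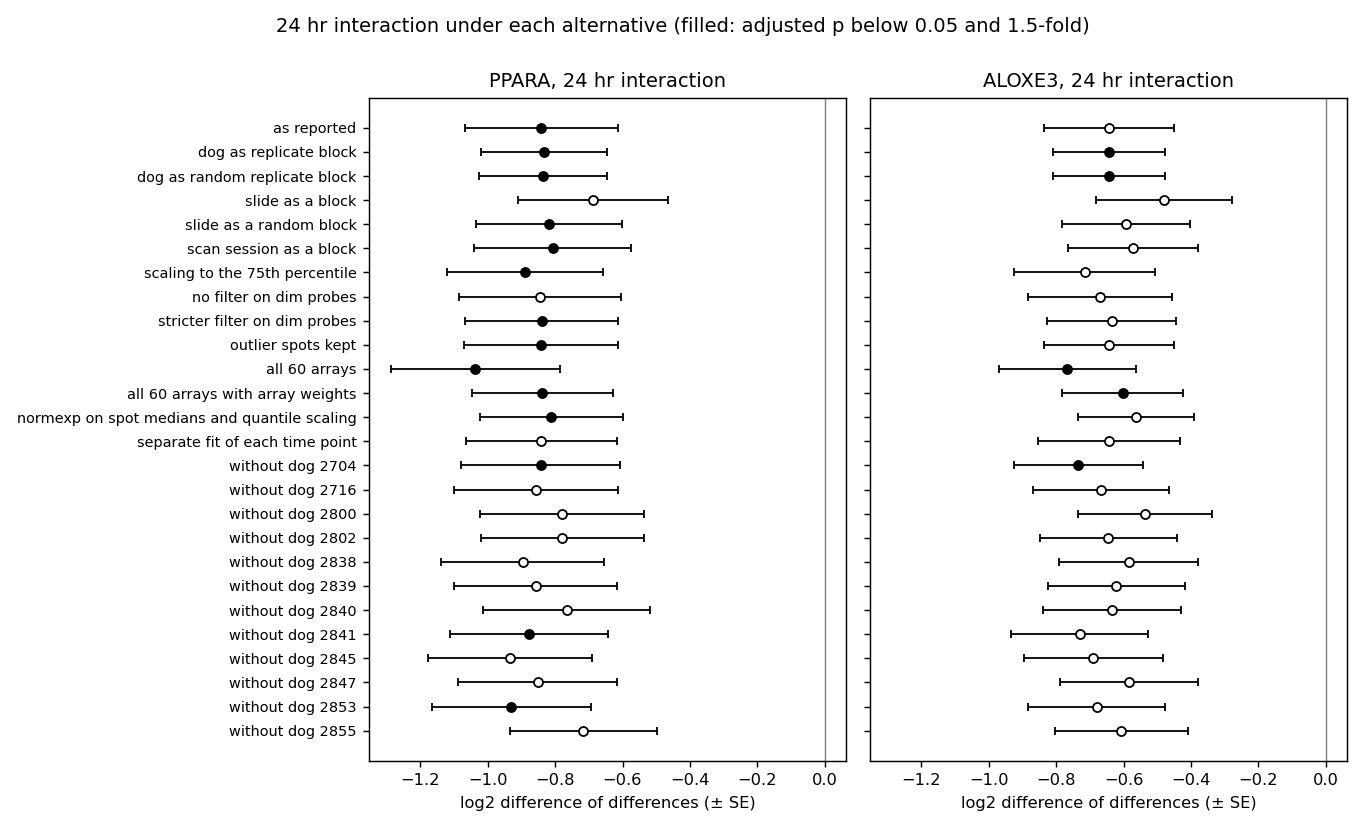
The 24 hr interaction of PPARA (DN748840, left) and ALOXE3 (right) on the x axis as a log2 difference of differences with its SE, for the fit as reported and each alternative on the y axis. Filled points passed both the adjusted p and the 1.5-fold limit; every estimate is below 0, and PPARA loses the call in 9 of the 12 fits without 1 dog.

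The direct comparison of the allergen sites gave larger differences than the interaction for ALOXE3. Sensitized minus nonsensitized dogs at 24 hr was -0.80 for ALOXE3 (SE 0.14, limma adjusted p = 7.3e-05), or 1.75-fold lower, and -0.66 for PPARA (SE 0.17, limma adjusted p = 0.0035), or 1.58-fold lower. This comparison called many probes, 1650 or 3.59% of them lower, and it uses the arrays by which the study chose the genes. At the saline sites of the same time the groups differed by -0.16 (ALOXE3, limma adjusted p = 0.512) and 0.18 (PPARA, limma adjusted p = 0.537).

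The 24 hr allergen arrays of the groups of dogs lay mostly on different slides. With the slide as a block the difference was -0.53 for ALOXE3 (limma adjusted p = 0.0421, under 1.5-fold) and -0.42 for PPARA (limma adjusted p = 0.153). On slide 3, with 3 sensitized arrays and 1 nonsensitized array, ALOXE3 differed by -0.60 and PPARA by -0.60, and on slide 2, with 1 array of each, by -0.15 and -0.18.

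Both genes were lower at the 24 hr allergen site of sensitized dogs than in untreated skin, and for PPARA the size depended on the probe. PPARA as measured by the EST probe fell by 0.72 on the log2 scale between untreated skin and the 24 hr allergen site of sensitized dogs (SE 0.17, limma adjusted p = 0.00051), and it was lower in 5 of 5 dogs. ALOXE3 differed by -0.51 (SE 0.14, limma adjusted p = 0.0031), lower in 5 of 5 dogs but under 1.5-fold. This comparison called 6.13% of all probes lower, and most untreated and 24 hr biopsies were on different slides. The slide block moved PPARA to -1.15 (limma adjusted p = 0.0026) and ALOXE3 to -0.76 (limma adjusted p = 0.0285), which was then called. Both values depend on the 24 hr allergen array of dog 2840, the only 24 hr array used that shared a slide with untreated skin. At the nonsensitized allergen site the differences from untreated skin were -0.057 for PPARA (DN748840, limma adjusted p = 0.797) and 0.15 for ALOXE3 (limma adjusted p = 0.369).

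The RefSeq probes gave smaller differences from untreated skin in the sensitized dogs, and neither was called. A_11_P050901 differed by -0.37 (limma adjusted p = 0.0416, under 1.5-fold), lower in 4 of 5 dogs, and A_11_P0000019816 by -0.25 (limma adjusted p = 0.133), lower in 5 of 5. At the nonsensitized allergen site they lay above untreated skin, by 0.29 (limma adjusted p = 0.0934), higher in 5 of 6 dogs, and by 0.21 (limma adjusted p = 0.187), higher in 6 of 6.

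The EST probe of PPARA also had a lower signal at the 24 hr saline site, which in the nonsensitized dogs was larger than with the RefSeq probes. In the nonsensitized dogs the saline site was -0.45 from untreated skin (SE 0.16, limma adjusted p = 0.014, under 1.5-fold), lower in 6 of 6 dogs. In the sensitized dogs it was -0.27 (limma adjusted p = 0.177), lower in 5 of 6. With the slide as a block, where only the 24 hr allergen array of dog 2840 links these times, the nonsensitized value was -1.14 (limma adjusted p = 0.0518). With A_11_P050901 the nonsensitized saline site was -0.042 from untreated skin (limma adjusted p = 0.827), lower in 2 of 6 dogs, and with A_11_P0000019816 it was -0.16 (limma adjusted p = 0.31), lower in 4 of 6. In the sensitized dogs both were lower in 5 of 6, by a mean of -0.17 (limma adjusted p = 0.373) and -0.13 (limma adjusted p = 0.45). For ALOXE3 the saline sites were -0.066 (nonsensitized, limma adjusted p = 0.703) and -0.086 (sensitized, limma adjusted p = 0.654) from untreated skin.

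At 6 hr PPARA as measured by the EST probe was lower under allergen than under saline in every dog of both groups. The EST probe ranged from 8.63 to 9.81 (median 9.40) at the allergen site of sensitized dogs and from 9.65 to 10.05 (median 9.86) at their saline site. In the nonsensitized dogs it ranged from 8.77 to 9.77 (median 9.44) under allergen and from 9.49 to 10.02 (median 9.75) under saline. Each dog's allergen site lay below its own saline site, by 0.16 to 1.12, although the ranges overlapped.

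The mean 6 hr difference was -0.55 ± 0.31 (SD, 6 sensitized dogs) and -0.38 ± 0.38 (SD, 6 nonsensitized dogs), and the exact sign-flip test gave p = 0.0312 in each, the smallest it allows. Over all 12 dogs it was -0.47 ± 0.34 (SD), exact sign-flip p = 0.00049, again the smallest possible, a test chosen after the values had been seen. Of all probes, 0.834% were lower in every dog at 6 hr, 5.67% in every sensitized dog and 3.75% in every nonsensitized dog. In the fit across all probes the difference did not pass, with limma adjusted p = 0.0939 in the sensitized and 0.907 in the nonsensitized dogs, where 0.418% and 0.0348% of all probes were called, and the 6 hr interaction was -0.17 (SE 0.22, limma adjusted p = 1, 95% interval from -0.62 to 0.27). With dog as a block the sensitized difference had a limma adjusted p of 0.0151 but remained under 1.5-fold. Within slides it was -0.31 (slide 5) and -1.02 (slide 6) in the sensitized and -0.43 (slide 4) in the nonsensitized dogs. Limma called 0 probes (0.0%) in the 6 hr interaction, where 523 had an unadjusted p below 0.05.

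ALOXE3 had a smaller mean difference at 6 hr, -0.21 ± 0.28 (SD) over the 12 dogs, with 9 of 12 lower (exact sign-flip p = 0.0298, by the same test chosen after the values had been seen). It was lower under allergen in 5 of 6 sensitized dogs (mean -0.23 ± 0.26, SD; exact sign-flip p = 0.0938) and in 4 of 6 nonsensitized dogs (mean -0.19 ± 0.32, SD; exact sign-flip p = 0.344). The 6 hr interaction was -0.048 (SE 0.19, limma adjusted p = 1, 95% interval from -0.43 to 0.33). In the sensitized dogs the ALOXE3 level at the allergen site differed by -0.50 between 6 hr and 24 hr (SE 0.14, limma adjusted p = 0.0207, under 1.5-fold), whereas for PPARA the same step was -0.28 (limma adjusted p = 0.325).

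**Figure D3:**
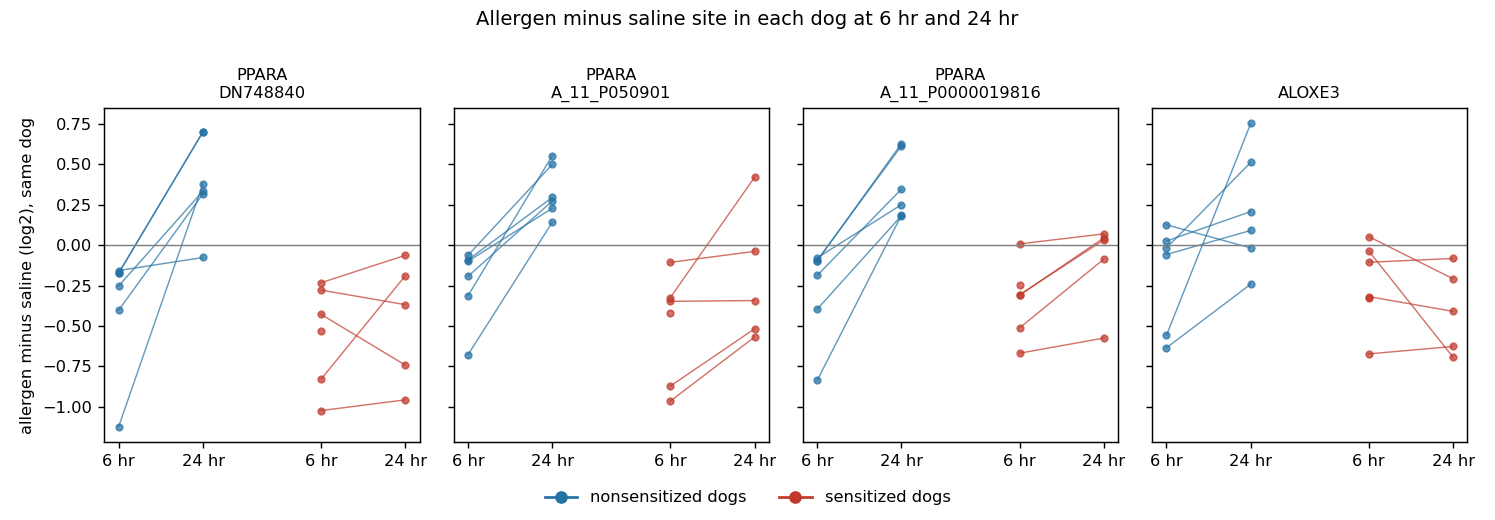
Allergen minus saline difference in log2 intensity (y axis) in each dog at 6 hr and 24 hr (x axis) for the 3 PPARA probes and ALOXE3; lines join the times of a dog, nonsensitized dogs in blue and sensitized in red, and dog 2839 has no 24 hr value. All 12 points of the EST probe and of A_11_P050901 are below 0 at 6 hr, and at 24 hr the nonsensitized dogs are above 0 in 6 of 6 for both RefSeq probes.

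The RefSeq probes repeated the 6 hr difference. A_11_P050901 was lower under allergen in 12 of 12 dogs (mean -0.37 ± 0.31, SD; exact sign-flip p = 0.00049) and A_11_P0000019816 in 11 of 12 (mean -0.31 ± 0.26, SD; exact sign-flip p = 0.00098). They measure the same biopsies, so they add probes but no further dogs.

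At the 24 hr allergen site of sensitized dogs A_11_P050901 measured 6.34, 6.39, 6.59, 6.64 and 7.21, against 6.79 to 7.66 (median 7.31) in nonsensitized dogs. A_11_P0000019816 measured 8.12, 8.35, 8.56, 8.57 and 8.76, against 8.49 to 9.03 (median 8.93). Both pairs of ranges overlapped, with the sensitized dogs at the low end.

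At 24 hr the RefSeq probes kept the sign of the interaction at a smaller size in the fit over all arrays. A_11_P050901 gave -0.54 (SE 0.21, limma adjusted p = 0.189) and A_11_P0000019816 gave -0.49 (SE 0.19, limma adjusted p = 0.186), against -0.84 for the EST probe. The 95% intervals were -0.95 to -0.12, -0.86 to -0.11 and -1.30 to -0.38, so they overlapped. Within slides A_11_P050901 gave 0.16 (slide 2) and -0.81 (slide 3), and A_11_P0000019816 gave -0.11 (slide 2) and -0.85 (slide 3). The nonsensitized side was shared. Allergen lay above saline in 6 of 6 nonsensitized dogs with both RefSeq probes (mean 0.33 ± 0.16, SD, and 0.37 ± 0.21, SD; exact sign-flip p = 0.0312 each), where 6.36% of all probes were higher in every nonsensitized dog.

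The sensitized side was not shared to the same degree. A_11_P050901 was lower under allergen in 4 of 5 sensitized dogs (mean -0.21 ± 0.41, SD) and A_11_P0000019816 in 2 of 5 (mean -0.10 ± 0.27, SD), against 5 of 5 for the EST probe. With the slide as a block these sensitized differences were -0.018 (limma adjusted p = 0.967) and -0.0048 (limma adjusted p = 0.992). At the 24 hr allergen sites the sensitized dogs were lower with both RefSeq probes, by -0.65 for A_11_P050901 (limma adjusted p = 0.0017, 1.56-fold) and -0.40 for A_11_P0000019816 (limma adjusted p = 0.027, 1.32-fold). The slide block changed these to -0.27 (limma adjusted p = 0.301) and -0.13 (limma adjusted p = 0.677).

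After the group means were removed, the 3 PPARA probes followed each other over the 59 arrays. The Pearson r was 0.73 between the RefSeq probes, and 0.53 and 0.54 between the EST probe and each of them. These are descriptions over arrays that share dogs, slides and the scaling of each array. With slide means removed as well they were 0.74, 0.63 and 0.64.

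PPARA and ALOXE3 were then compared over arrays with the group means removed, to see whether they varied together beyond the differences between groups. For the EST probe r was 0.30 and Spearman's rho 0.24 (59 arrays; permutation of whole dogs within groups, p = 0.0764 and 0.164, Benjamini-Hochberg adjusted over 15 relations 0.127 and 0.214). Without the 2 arrays farthest from the PPARA median r was 0.21. Of all other probes, 9.05% had an r with ALOXE3 at least as high. The r was -0.25 in the 12 untreated arrays, 0.38 in the 6 hr arrays and 0.38 in the 24 hr arrays, and 0.19 in sensitized and 0.43 in nonsensitized dogs, and the differences between these were not tested.

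The values of the EST probe were then taken between dogs and within dogs, and the difference between these was not tested. Between dogs, the mean deviation of a dog in PPARA bore no such relation to that in ALOXE3 (r = -0.071, rho = -0.042, 12 dogs, permutation p = 0.841 and 0.914). Within dogs, with dog means removed as well, r was 0.60 and rho 0.55 (59 arrays, permutation p = 0.0003 and 0.0006, adjusted 0.0025 and 0.0034), and r was 0.53 without the 2 arrays farthest from the median. Among all other probes 1.25% had a within-dog r with ALOXE3 that high, and 2.63% had one with PPARA that high. With slide means removed too, the within-dog r was 0.60.

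**Figure D4:**
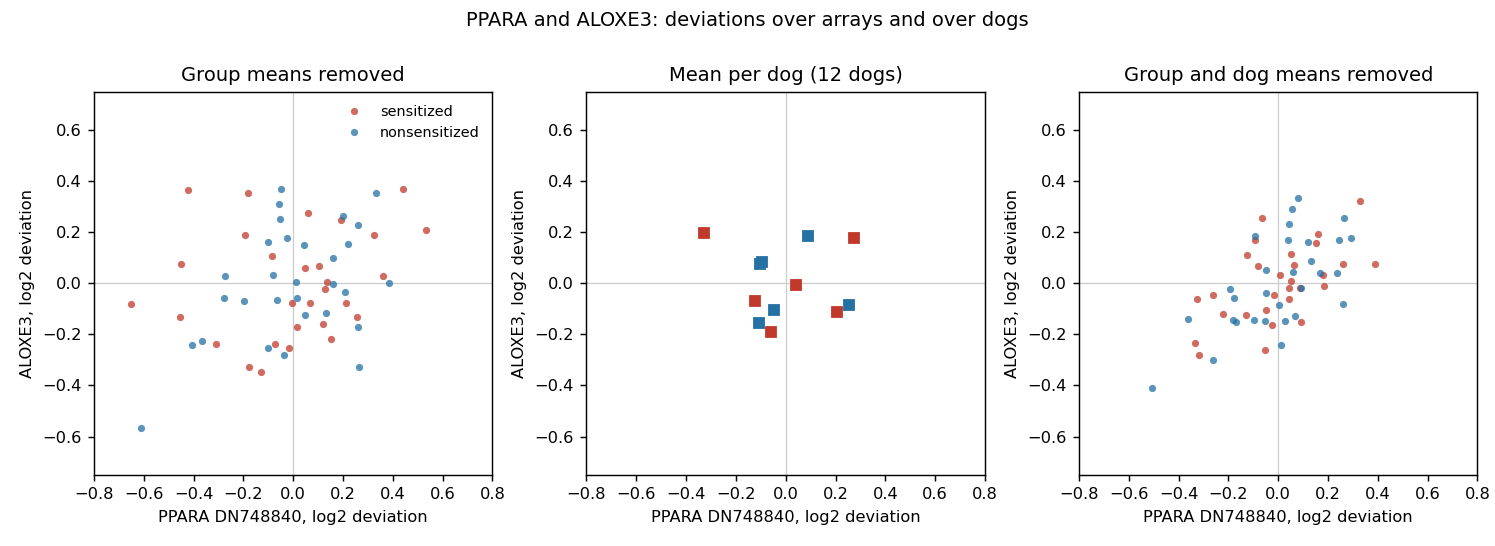
ALOXE3 (y axis) against PPARA DN748840 (x axis) as deviations in log2 intensity, for 59 arrays after removal of group means (left), as means per dog for 12 dogs (middle) and for 59 arrays after removal of group and dog means (right). Sensitized dogs are red and nonsensitized dogs blue; r is 0.30, -0.071 and 0.60.

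Both RefSeq probes correlated with ALOXE3 without removal of dog means. For A_11_P050901 r was 0.56 and rho 0.54 (59 arrays, permutation p = 0.0001 and 0.0002, adjusted 0.0022 and 0.0025), and for A_11_P0000019816 r was 0.50 and rho 0.49 (permutation p = 0.0052 and 0.0029, adjusted 0.0155 and 0.0086). Without the 2 farthest arrays r was 0.51 and 0.40. Within dogs r was 0.53 and 0.55 (permutation p = 0.0019 and 0.0018, adjusted 0.0071 for both). Over dog means r was 0.60 and 0.45 (12 dogs, permutation p = 0.0557 and 0.157).

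The slides gave uneven values. Within the 8 slides, of 6 to 8 arrays each, r with ALOXE3 ranged from -0.65 to 0.72 for the EST probe (6 of 8 positive), from 0.072 to 0.81 for A_11_P050901 (8 of 8 positive) and from -0.35 to 0.87 for A_11_P0000019816 (7 of 8 positive). With slide means removed over all arrays, r was 0.24, 0.50 and 0.44.

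The allergen minus saline differences of each dog gave the same sign but rested on few dogs. With group means removed, the PPARA and ALOXE3 differences at 6 hr had r = 0.64 and rho = 0.59 (12 dogs, permutation p = 0.0306 and 0.0537, adjusted 0.0764 and 0.115), and without the 2 dogs farthest from the PPARA median r was 0.022. At 24 hr r was 0.43 and rho 0.40 (11 dogs, permutation p = 0.214 and 0.257).

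Named genes most like each member over the 59 arrays, with group means removed, were sought among 1259 other genes that could be named. Most of the nearest were named through the study's own gene list. Nearest to PPARA (DN748840) were PHYHIP (r = 0.72), a binding partner of the peroxisomal phytanoyl-CoA hydroxylase, ACSBG1 (0.63), an acyl-CoA synthetase, MITF (0.62), the regulator of melanocyte genes, YPEL3 (0.61) and SESN1 (0.60). Among the lowest values was that of SLC25A28 (-0.64), a mitochondrial iron carrier.

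ALOXE3 had other neighbours. They were ASPRV1 (r = 0.85), the protease that processes profilaggrin in the upper epidermis, KLC3 (0.81), SMPD3 (0.73), a neutral sphingomyelinase, KIFC3 (0.68) and ABCC1 (0.65), and the lowest were FGF10 (-0.71) and TNFSF12-TNFSF13 (-0.66). With PPARA, ASPRV1 had r = 0.29, KLC3 0.41, SMPD3 -0.032, KIFC3 0.43 and ABCC1 0.29. With ALOXE3, PHYHIP had 0.48, ACSBG1 0.41, MITF 0.22, YPEL3 0.58 and SESN1 0.24.

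Of 129 further genes in lists of the PPAR family and its partners, PPARA target genes, the acylceramide pathway, ceramide enzymes and lipid synthesis, 11 could be named through RefSeq and were measured. In the 24 hr interaction, which called 0.94% of all probes and 0.339% of them as lower, 2 of the 11 were called, both lower and none higher. They were CAT, the peroxisomal catalase and a PPARA target, at -0.67 (SE 0.135, limma adjusted p = 0.0097), and TGM1, the transglutaminase that crosslinks the cornified envelope, at -0.59 (limma adjusted p = 0.0332). The median over the 11 was -0.39, against -0.0042 over all probes, and the lists were chosen with earlier results of these data known.

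The other PPAR receptors were not called. PPARD, the receptor delta, had an interaction of 0.37 (limma adjusted p = 0.409) and PPARG, the receptor gamma of sebocytes and adipocytes, had -0.42 (limma adjusted p = 0.556). Of the PPARA targets, CD36, CYP4A11, VNN1 and UCP3 were not called either. None of the 11 was called in allergen minus saline at 24 hr in either group of dogs or in the 6 hr interaction. Another 3 list members were named only through the study's list, which was chosen on these arrays. Of these SMPD3 was called lower (-0.85, limma adjusted p = 0.0373), and SGMS1 (-0.60) and ASAH2 (-0.95) were not. SMPD3 was also lower under allergen than saline in the sensitized dogs (-0.75, limma adjusted p = 0.0126).

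Summed levels of several marker lists differed between the same 24 hr allergen sites. For 6 of 10 granulocyte and mast cell markers the sum ranged from 16.7 to 17.8 in sensitized and from 14.0 to 16.5 in nonsensitized dogs, and it was nearly all S100A8, a protein of neutrophils and of stressed keratinocytes. S100A8 was higher in the sensitized dogs by 2.56 (limma adjusted p = 0.0064), whereas CXCR2, KIT, CMA1, FCER1A and MS4A2 differed by 0.081 to 0.51 and were not called. For 4 of 9 macrophage and dendritic cell markers, 3 of them named through the study's list, the sums ranged from 11.26 to 12.30 in sensitized and from 10.72 to 11.30 in nonsensitized dogs. KRT15, the one basal keratinocyte marker named and also from the study's list, ranged from 7.25 to 7.73 and from 7.81 to 8.62, without overlap, and was called lower in the sensitized dogs (-0.82, limma adjusted p = 0.00025). Of all probes 4.12% were separated in this direction and 3.59% were called lower. For 5 of 9 T cell markers, 1 from the study's list, the ranges were 8.81 to 9.66 and 8.28 to 8.70, and for 12 of 21 markers of differentiated keratinocytes, 7 of them named through the study's list, 18.6 to 19.1 and 19.0 to 19.4. The keratinocyte sum was mostly KRTDAP, which differed by -0.072 (limma adjusted p = 0.635), and KRT1. Of the 12 keratinocyte markers 8 were called lower in the sensitized dogs at that site, where 3.59% of all probes were called lower. These were 2 of 5 named through RefSeq (KRT2 and SPINK5) and 6 of 7 from the study's list, which was chosen on these arrays. Among those 6 were ASPRV1 (-1.24), LOR (-1.23), FLG2 (-1.20) and SCEL (-1.03), beside -0.80 for ALOXE3 and -0.66 for PPARA. Within groups, r between these summed levels and the members over 59 arrays was -0.11 with PPARA and 0.34 with ALOXE3 for differentiated keratinocyte markers. Single keratinocyte markers had r from -0.34 (KRTDAP) to 0.34 (PPL) with PPARA and from 0.087 (KRTDAP) to 0.85 (ASPRV1) with ALOXE3. For T cell markers it was -0.017 and -0.32, for granulocyte and mast cell markers -0.20 and -0.017, for macrophage and dendritic cell markers -0.19 and -0.30, and for KRT15 0.092 and 0.37. The part of these cells in the PPARA and ALOXE3 differences was not tested. Of 2 named muscle markers, MYH2 was below the filter on dim probes.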

How the data were processed

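RNA of 60 skin biopsies was hybridized in one colour (Cy3) to Agilent canine arrays, whose design build is canFam2 per the file headers. The authors extracted each spot's processed signal with Agilent Feature Extraction (10.7.3.1, per the submitters' processing notes). This deposited intensity is background-subtracted and not scaled between arrays, and 2 of the files held it as whole numbers. Outlier-flagged spots were set to missing, 45972 probes were kept that stood well above background on 5 or more arrays of any group, and variance stabilization (the vsn model, reimplemented and tested on simulated data) gave normalized log2 values. Median signals per array ran from 81.7 to 146.12, and the number of arrays limits the precision. Limma 3.58.1 (R 4.3.3) fitted the 10 group means over 59 arrays, unpaired as in the study's methods, with Benjamini-Hochberg adjustment over all probes. In a simulated 24 hr interaction over 45972 probes, 78% of 2-fold and 97% of 4-fold changes were called.

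Arrays of the same dog pair by animal number in the labels: deviations from group means correlated with a median r of 0.386 in 116 same-dog pairs (lowest -0.004) and -0.044 between dogs. Slides (8) and scan sessions (3) were taken as batches. Correlations were tested by 100000 permutations of whole dogs within groups (20000 for alternatives). The named genes were the members, other probes of their transcripts, list members called at 24 hr plus PPARD and PPARG, and the 5 nearest and 2 least like genes, of which 1 is not reported here. Other list members and cell type markers named in the text fall outside this rule and were chosen after their values were seen. Names came from the RefSeq table (1080 identifiers) and the study's list (598). The members and gene lists were chosen with earlier results of these data known. Marker lists also covered basal keratinocytes, hair follicle, adipocytes, dermal matrix, endothelium, muscle, macrophages and melanocytes. Alternatives were another scaling, other filters, all 60 arrays, array weights, dog, slide or scan session as a block, separate fits per time, other probes and each dog left out. The normexp scaling for correlations, the random dog block, the scan session and the 12-dog test at 6 hr were added after the data were seen.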

Additional observations from a re-analysis of the deposited data

Results flagged for a closer look

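The interaction of PPARA (DN748840) at 24 hr, -0.8406 on the log2 scale, differed between the groups of dogs by the interaction term itself (limma adjusted p = 0.0472, with the alternatives from 0.0058 to 0.176). Of 56 groups of values tested for a single dog far from the rest, 6 had one, where chance gives about 1 in 20. Dog 2704, nonsensitized, lay low at the 6 hr allergen site with ALOXE3 (7.6525, the others from 8.21 to 8.47) and with A_11_P050901 (6.3031, the others from 6.79 to 7.04). Its allergen minus saline difference at 6 hr with DN748840 was -1.1223, the others from -0.40 to -0.16. Dog 2802, nonsensitized, was low at the 24 hr saline site with A_11_P050901 (6.2414, the others from 6.96 to 7.25) and at the 24 hr allergen site with A_11_P0000019816 (8.4918, the others from 8.88 to 9.03). In dog 2855, sensitized, the 24 hr allergen minus saline difference of A_11_P0000019816 was -0.5748, the others from -0.086 to 0.070.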

How the results depend on the processing

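Of the alternatives tried for the main results, 492 values kept their direction and side of the threshold, 13 gained a call, 17 lost one and 12 changed sign, and the cause was not tested. The PPARA interaction at 24 hr was no longer called with the slide as a block (-0.69), without a filter on dim probes (-0.84, more probes tested) or in separate fits of each time (-0.84), and ran from -0.93 to -0.72 without 1 dog. That of ALOXE3 was called with dog as a replicate block (-0.64), as a random replicate block (-0.64), with all 60 arrays (-0.77) and with array weights (-0.60), and ran from -0.73 to -0.54 without 1 dog, called without dog 2704. The dog block changed no other call of a difference, and between-dog comparisons at one site have none under it. It moved the calls over all probes in the 24 hr interaction from 276 higher and 156 lower to 964 and 664. Those calls were 904 and 517 with the random dog block, 766 and 281 with the slide block, 603 and 203 with the scan session, 786 and 314 with array weights, 382 and 386 with all 60 arrays and 131 and 52 without the filter, and without 1 dog they ran from 13 and 2 (dog 2855) to 490 and 270 (dog 2704), with 36 and 9 without dog 2800, 33 and 11 without 2802, 151 and 57 without 2839, 169 and 84 without 2845 and 142 and 74 without 2847. Sensitized minus nonsensitized dogs at the 24 hr allergen site fell under the limits with the slide as a block for PPARA (-0.42) and ALOXE3 (-0.53), with the scan session as a block for PPARA (-0.57), and without dog 2840 (-0.58) or 2855 (-0.55). In untreated skin PPARA, near 0, changed sign with the slide as a block (-0.052) or random block (-0.022), the 75th percentile (-0.0019), no filter (-0.019), normexp (-0.0015) and without dogs 2800 (-0.034), 2838 (-0.021), 2841 (-0.033), 2845 (-0.0074) and 2853 (-0.025), up to 0.090 without dog 2855. The 6 hr interaction changed sign for ALOXE3 without dog 2845 (0.015) or 2855 (0.040), down to -0.14 without dog 2704, and for A_11_P0000019816 without dog 2855 (0.0085), down to -0.17. With all 60 arrays, which bring back the degraded array of dog 2839, the sensitized PPARA difference from saline at 24 hr was -0.64. In that fit ALOXE3 differed by -0.63 from untreated skin and -0.63 from 6 hr, and all of these were called. With the slide as a block the ALOXE3 difference from untreated skin was -0.76, also called, and only the 24 hr allergen array of dog 2840 links these times there. The correlation of PPARA (DN748840) and ALOXE3 passed with dog means removed (0.60), all 60 arrays (0.42) and without dog 2847 (0.39) or 2855 (0.48), and ran from 0.21 to 0.48 without 1 dog.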

Other observations

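The array of dog 2839 from the 24 hr allergen site, left out above except in the alternative fits with all 60 arrays, held low values for all 4 probes. Scaled together with the other 59 arrays, PPARA (DN748840) was 7.83 there, against 8.53 to 9.42 in the other 5 sensitized dogs at that site. ALOXE3 was 7.01 against 7.48 to 8.09, A_11_P050901 was 6.29 against 6.30 to 7.18, and A_11_P0000019816 was 7.98 against 8.10 to 8.74. Each was below the other 5 values. The RNA of this array was degraded, and its median signal was 70.97, against at least 81.7 on the other 59 arrays. How many of all probes were as low on it was not counted, so these values do not stand for a further dog.

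Neighbouring levels in the order of the 10 group means were mostly closer than their spread. For PPARA (DN748840), ALOXE3 and A_11_P050901, 8 of 9 neighbouring pairs differed by less than the SD of either group, and for A_11_P0000019816 9 of 9 did. The means of ALOXE3 spanned 0.80 from the nonsensitized 24 hr allergen site to the sensitized 24 hr allergen site, and the largest step, 0.43, separated the sensitized 24 hr allergen site from the sensitized 24 hr saline site. For PPARA (DN748840) the means spanned 0.84, from the sensitized 6 hr saline site at 9.84 to the sensitized 24 hr allergen site at 9.00.

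Other marker lists had r within groups with PPARA (DN748840) from -0.19 to 0.26 and with ALOXE3 from -0.41 (melanocyte markers) to 0.37 (KRT15, the only basal keratinocyte marker named). These are descriptions over 59 arrays that share dogs and slides.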
